A study of Rattus norvegicus and Mus musculus with 56 samples.

Results

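The genes described here are 10 members of the interleukin-1 (IL-1), tumour necrosis factor (TNF) and inflammasome systems, measured in the dorsal horn of the mouse spinal cord after nerve injury. They were chosen by name, as the cytokine genes Il1a, Il1b, Il18 and Tnf, the receptor genes Il1r1, Tnfrsf1a and Tnfrsf1b, and the inflammasome genes Nlrp3, Pycard and Casp1. The choice was made with earlier results of these data known. All 10 were found among the 41388 mouse gene identifiers of the tables. Poly(A) RNA was sequenced from wild-type C57BL/6 mice of both sexes, from the dorsal horn at L4:L5, on day 7 after a sham operation or after spared nerve injury (SNI), a model of neuropathic pain. SNI cuts branches of the sciatic nerve and spares another. Each side of the cord was taken separately, ipsilateral or contralateral to the operated nerve. This gave 24 libraries in 8 groups of 3, namely female SNI, female sham, male SNI and male sham, each on both sides. With the sexes joined, each combination of surgery and side holds 6 libraries. The labels say neither how many animals a library holds nor which libraries share an animal, so the p-values rest on the spread between libraries of a group, which may be partly technical. The series asks how the dorsal spinal cord responds to SNI in both sexes, and the members bear on its inflammatory side.

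IL-1 and TNF are cytokines that bind receptors on neurons, glia and vessel cells and switch on NF-kappaB signalling. IL-1α acts as made, whereas IL-1β and IL-18 are made as inactive precursors. An inflammasome is a protein complex in which a sensor such as NLRP3 binds the adaptor ASC, the product of Pycard, and ASC recruits caspase-1, which cuts those precursors. TNF signals through TNFR1, the product of Tnfrsf1a, which most cells carry, and TNFR2, the product of Tnfrsf1b, which is found mainly on immune and endothelial cells and microglia. Microglia, the macrophages that reside in the cord itself, are a known source of these cytokines in the spinal cord after nerve injury.

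The libraries held 27.98 to 42.9 M gene reads (median 32.6 M), with M for mega. Levels are CPM, read counts scaled to a common library total, and changes were tested with limma across all genes. Genes with an adjusted p under 0.05 are described as called. Marker genes of neurons, astrocytes and oligodendrocytes were detected at high summed levels in every library, with 1497 to 1908 CPM for the 12 dorsal horn neuron markers. Motor neuron markers, which belong to the ventral horn, summed to 96.9 to 626 CPM. Neutrophil markers stood far above the rest in 2 libraries, at 214 CPM in female sham ipsilateral replicate 1 and 248 CPM in male SNI contralateral replicate 3. The 8 libraries titled 49 to 56 had 75.4% to 76.1% of their entries on genes, above the 71.4% to 74.7% of those titled 33 to 48. Among ipsilateral libraries the later titles hold 3 SNI and 1 sham library, so the values of the called members and of Tnfrsf1a are also given within each range of titles.

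On the operated side, 4 of the 9 members that could be tested rose after SNI: Pycard, Il1a, Nlrp3 and Tnfrsf1b. The background was 2.07% of all 17602 genes called in either direction, 1.94% higher and 0.131% lower. No member fell, and Il1b, Il18, Il1r1, Casp1 and Tnfrsf1a did not pass the test. Tnf had too few reads to be tested across genes. The median log2 fold change of the 9 members was 0.30, against -0.0025 over all genes tested. In bulk tissue, a change in the number of cells of a type and a change in RNA per cell cannot be told apart, and this holds for every change below.

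**Figure D1:**
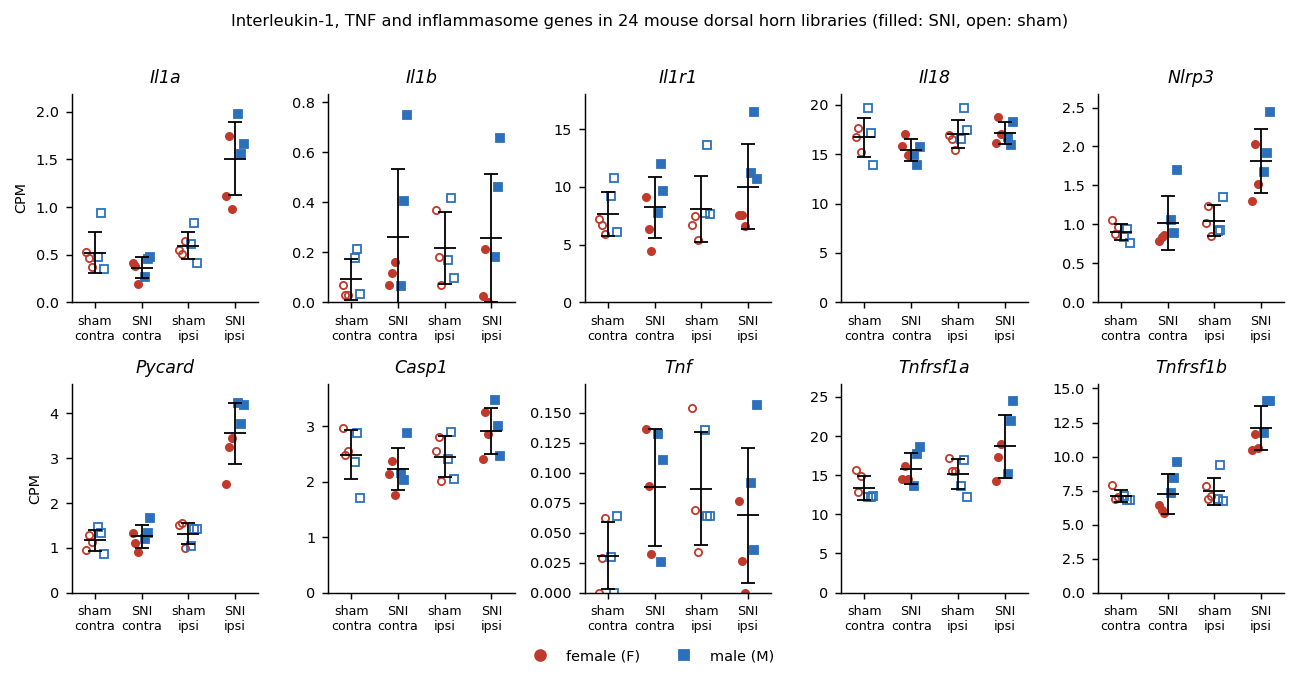
Level of each member in every library in CPM (vertical axes, each starting at 0) by surgery and side; points are libraries, circles female and squares male, filled SNI and open sham, and bars are mean ± SD of 6 libraries. The 6 SNI ipsilateral libraries lie above all others for Pycard, Il1a and Tnfrsf1b, and Il1b and Tnf stay below 1 CPM throughout.

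Among the ligands, Il1a encodes IL-1α, and lies on chromosome 2 at 129299610 to 129309972 of GRCm38, on the minus strand. Its level in the 6 SNI ipsilateral libraries was lowest at 0.975, median 1.61 and highest 1.98 CPM, and in the 6 sham ipsilateral libraries 0.417, 0.582 and 0.835 CPM. Every SNI library lay above every sham library, which was so for 1.24% of all genes. The rise was 2.37-fold (95% confidence interval 1.79 to 3.15), or 1.25 ± 0.19 on the log2 scale (SE, n = 6 against 6, limma adjusted p = 0.00145). The change rests on 29 to 66 reads per SNI library and 13 to 26 per sham library. Both sexes showed it: female means were 1.28 ± 0.410 and 0.567 ± 0.0728 CPM, and male means 1.73 ± 0.219 and 0.621 ± 0.209 CPM (SD, n = 3 each). Of its exon length, 11.2% overlaps Gm14023 on the other strand. Gm14023 itself held 115 reads over the SNI ipsilateral and 126 over the sham ipsilateral libraries, and the strand setting of the counting is not given in the sources used here.

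Il1b, which encodes IL-1β, lies on the same chromosome at 129364570 to 129371139. It was close to the detection limit, with 0 to 27 reads per library. Its ipsilateral levels ran from 0 through a median of 0.197 to 0.657 CPM after SNI and from 0.0680 through 0.176 to 0.418 CPM after sham surgery. The ranges overlapped almost fully, and the fold of 0.906 had an interval of 0.463 to 1.77 (limma adjusted p = 0.940), so no difference was detectable at this depth.

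The 5 libraries richest in Il1b were from male mice, 4 of them after SNI. Those 4 are the libraries titled 49 to 52. Male SNI replicate 1, titled 35 ipsilaterally and 36 contralaterally, had 6 and 2 reads. Among males, surgery can therefore not be told apart from the range of titles here. The female libraries titled 53 and 54, after sham surgery, had 2 and 1 reads, and those titled 55 and 56, after SNI, had 0 and 5. Male SNI contralateral replicate 3 had 27 reads, male SNI ipsilateral replicate 3 had 21, and male SNI contralateral replicate 2 had 16. The first of these was also the library highest in neutrophil markers, a cell type known to express Il1b, and the second had the third-highest neutrophil sum, at 68.4 CPM. The other library high in these markers, female sham ipsilateral replicate 1, had 12 Il1b reads. The part of neutrophil markers in the Il1b values was not tested.

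Il18, which encodes IL-18, lies on chromosome 9 at 50554827 to 50581840. It had the smallest standard error of the tested members on the operated side, with levels of 15.9, 16.9 and 18.8 CPM (lowest, median, highest) after SNI and 15.5, 16.7 and 19.7 CPM after sham surgery. The groups overlapped throughout. The fold was 1.003 with an interval of 0.916 to 1.10 (limma adjusted p = 0.986).

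Tnf, which encodes TNF, lies on chromosome 17 at 35199381 to 35202007 and gave 53 reads over all 24 libraries. No library had more than 5 reads and 3 had none, where 3 reads, the limit a count of 0 allows, would be 0.0916 to 0.105 CPM. Summed over 6 libraries, there were 13 reads after SNI and 17 after sham on the ipsilateral side, and 17 and 6 on the contralateral side. The ipsilateral difference gave p = 0.468 in an exact two-sided permutation test of mean CPM. Of 6 such tests made on Tnf and Il1b where they were too low for the fit across genes, the smallest p was 0.0130, for Tnf in sham ipsilateral against sham contralateral libraries, and after adjustment over the 6 tests it was 0.0779. No difference in Tnf was therefore shown at this depth.

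Of the receptors, Tnfrsf1b, on chromosome 4 at 145213463 to 145246870, had 10.4, 11.7 and 14.1 CPM (lowest, median, highest) in SNI ipsilateral libraries. Sham ipsilateral libraries had 6.76, 6.96 and 9.35 CPM. The groups did not overlap, and the rise was 1.62-fold (1.42 to 1.84), or 0.69 ± 0.088 on the log2 scale (SE, limma adjusted p = 0.000261). Female means were 10.9 ± 0.627 and 7.24 ± 0.497 CPM, and male means 13.3 ± 1.33 and 7.65 ± 1.47 CPM (SD, n = 3 each).

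Tnfrsf1a, the gene of the more widely expressed TNF receptor, lies on chromosome 6 at 125349362 to 125362484. It had 14.2, 18.1 and 24.5 CPM after SNI and 12.3, 15.5 and 17.1 CPM after sham surgery on the operated side. In 4 of 6 SNI libraries the level was above every sham library. The fold of 1.22 (1.01 to 1.46) did not pass the test over all genes (limma adjusted p = 0.370). It passed in 1 of 12 fits that left out 1 library, the one without male SNI ipsilateral replicate 1, and the adjusted p over these fits ran from 0.0480 to 0.597. Without the titles 49 to 56 the log2 change was 0.020 (adjusted p = 0.982).

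Il1r1, on chromosome 1 at 40225080 to 40317257, encodes the receptor that both IL-1α and IL-1β bind. Its ipsilateral levels were 6.66, 9.13 and 16.5 CPM after SNI and 5.41, 7.55 and 13.6 CPM after sham surgery. The ranges overlapped, and the fold of 1.23 (0.969 to 1.56) did not pass the test (limma adjusted p = 0.482). In each of the 4 combinations of surgery and side the male mean was above the female mean, for example 12.8 ± 3.20 against 7.26 ± 0.527 CPM in SNI ipsilateral libraries (SD, n = 3 each), and this difference was not tested.

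Of the inflammasome genes, Pycard lies on chromosome 7 at 127989708 to 127993867. It had 2.42, 3.61 and 4.23 CPM (lowest, median, highest) after SNI and 0.986, 1.41 and 1.55 CPM after sham surgery. The groups did not overlap. The rise was 2.61-fold (2.11 to 3.23), or 1.38 ± 0.14 on the log2 scale (SE, limma adjusted p = 4.02e-05). Female means were 3.05 ± 0.552 and 1.35 ± 0.315 CPM, and male means 4.06 ± 0.264 and 1.29 ± 0.208 CPM (SD, n = 3 each). Of its exon length, 12.8% overlaps Gm45205 on the other strand, a gene that was not analysed here.

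Nlrp3, the sensor gene, lies on chromosome 11 at 59541568 to 59566956. Its ipsilateral levels were 1.30, 1.79 and 2.44 CPM after SNI and 0.850, 0.973 and 1.35 CPM after sham surgery. In 5 of 6 SNI libraries the level was above every sham library, and the remaining one lay within the sham range. The rise was 1.68-fold (1.31 to 2.14), or 0.75 ± 0.17 on the log2 scale (SE, limma adjusted p = 0.0260). This call was close to the threshold: it was kept in 4 of 12 fits that left out 1 library each, with adjusted p up to 0.0882 without female SNI ipsilateral replicate 2. It was also lost without the 2 ipsilateral libraries highest in blood and neutrophil markers (0.70, adjusted p = 0.131).

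Casp1, on chromosome 9 at 5298517 to 5307265, encodes caspase-1. It had 2.42, 2.93 and 3.47 CPM after SNI and 2.01, 2.48 and 2.89 CPM after sham surgery on the operated side. In 3 of 6 SNI libraries the level was above every sham library. The fold of 1.18 (0.974 to 1.44) did not pass the test (limma adjusted p = 0.487).

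Within the titles 33 to 48, which hold 3 SNI and 5 sham ipsilateral libraries, Pycard ran from 2.42 to 4.23 against 1.05 to 1.55 CPM, and Il1a from 1.12 to 1.98 against 0.417 to 0.835 CPM. Tnfrsf1b ran there from 10.4 to 11.7 against 6.76 to 9.35 CPM, while Nlrp3, at 1.30 to 2.04 against 0.915 to 1.35 CPM, overlapped. Within the titles 49 to 56 the single sham library lay below all 3 SNI libraries for these genes, with 0.986 against 3.46 to 4.19 CPM for Pycard. Tnfrsf1a, which was not called, ran from 14.2 to 17.3 against 12.3 to 17.1 CPM in the earlier titles and from 18.9 to 24.5 against 15.5 CPM in the later ones. Fitted on the titles 33 to 48 alone, 1 member was called, Pycard. The log2 changes there were 1.48 for Il1a (adjusted p = 0.0692), 0.61 for Tnfrsf1b (0.109) and 0.58 for Nlrp3 (0.543), in a fit that called 65 genes higher in place of 342.

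The members differ widely in level. Per kilobase of exon, averaged over the 24 libraries, Il18 was highest at 16.1 ± 1.49 CPM per kilobase (SD), followed by Tnfrsf1a at 6.08 ± 1.18 and Tnfrsf1b at 2.22 ± 0.634. Casp1 followed at 1.68 ± 0.304 and Il1r1 at 1.34 ± 0.441, then Pycard at 0.480 ± 0.286, Il1a at 0.378 ± 0.257 and Nlrp3 at 0.295 ± 0.112. Il1b, at 0.108 ± 0.106, and Tnf, at 0.0411 ± 0.0299 CPM per kilobase, were lowest. Tnfrsf1b and Casp1, Casp1 and Il1r1, the trio of Pycard, Il1a and Nlrp3, and Il1b and Tnf differed by less than the larger of their SDs. These SDs over 24 libraries include the changes with surgery and side. Within the SNI ipsilateral libraries, Tnfrsf1b (2.74 to 3.68) and Casp1 (1.62 to 2.32) did not overlap. Neither did Pycard (0.637 to 1.11) and Nlrp3 (0.320 to 0.601). The length of Pycard, 3800 bases, is set by a long annotated transcript, so its level per kilobase depends on that annotation. The order of the means was the same in the SNI ipsilateral libraries, where Pycard reached 0.935 ± 0.178 and Il1a 0.763 ± 0.194 CPM per kilobase (SD, n = 6).

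**Figure D2:**
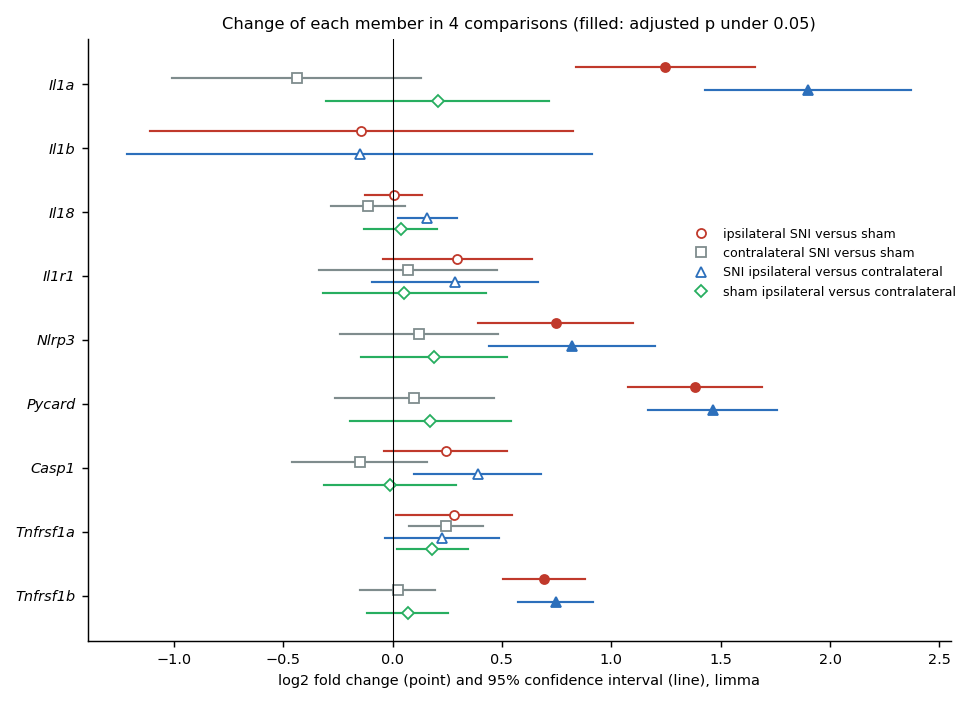
Log2 fold change of each tested member (points) with its 95% confidence interval (lines) in 4 comparisons on the horizontal axis; filled symbols have a limma adjusted p under 0.05. Pycard, Il1a, Nlrp3 and Tnfrsf1b are filled in both comparisons that contain the SNI ipsilateral libraries and open in both others, and Tnf and, in 2 comparisons, Il1b had too few reads for the fit.

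The contralateral side asks whether the members respond away from the operated nerve. Contralateral SNI and sham libraries gave 0 of 8 tested members called by limma, beside 0% of 17580 genes, and limma's voom method called none either. Among all genes, 336 had an unadjusted p under 0.05 (1.91%). Pycard had 0.900, 1.26 and 1.66 CPM (lowest, median, highest) after SNI and 0.859, 1.202 and 1.46 CPM after sham surgery. Il1a had 0.193, 0.397 and 0.472 CPM after SNI and 0.350, 0.472 and 0.938 CPM after sham surgery. The groups overlapped for both, with log2 changes of 0.10 (interval -0.26 to 0.46) and -0.44 (-1.01 to 0.13). The smallest unadjusted p among members was that of Tnfrsf1a, 0.00757, at a log2 change of 0.24 (0.08 to 0.41) and a limma adjusted p of 0.99967.

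Between the sides of SNI animals, the same 4 members, Pycard, Il1a, Nlrp3 and Tnfrsf1b, were higher ipsilaterally, of 9 tested, beside 5.23% of 17634 genes called in either direction, 2.95% higher and 2.27% lower. This comparison uses the same SNI ipsilateral libraries as the comparison with sham, so it is no independent repeat. The log2 differences were 1.90 ± 0.22 for Il1a (SE, limma adjusted p = 0.000113), 1.46 ± 0.14 for Pycard (1.52e-05), 0.82 ± 0.18 for Nlrp3 (0.0146) and 0.75 ± 0.080 for Tnfrsf1b (5.25e-05). The ipsilateral libraries lay above all contralateral ones for Il1a, Pycard and Tnfrsf1b, as for 1.46% of all genes, and for Nlrp3 3 of 6 did. Casp1 had a difference of 0.39 ± 0.13 (adjusted p = 0.125) and Il18 one of 0.16 ± 0.062 (adjusted p = 0.181). Il1r1, at 0.29, Tnfrsf1a, at 0.23, and Il1b, at -0.15, did not pass the test either. Libraries of the sides were not paired in this fit, so small differences that hold within animals could be missed. Without the titles 49 to 56 none of the members was called. With motor neuron level as a covariate Il1a (2.08 ± 0.54, SE, limma adjusted p = 0.0637) and Nlrp3 (1.54 ± 0.38, 0.0521) lost their calls. Both estimates were higher there, with larger SEs. In the same comparison 6 of 9 motor neuron markers were lower ipsilaterally (median -1.49), as were 3 of 8 pan-neuronal markers (median -0.096). The motor neuron markers summed to 96.9 to 365 CPM in SNI ipsilateral and 258 to 626 CPM in SNI contralateral libraries. Against sham ipsilateral libraries, at 164 to 478 CPM, none of the 9 was called (median -0.81). The part of the pan-neuronal markers in the members' differences was not tested.

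Sham animals gave no called member between the sides. Limma called 0 of 8 members and 0% of 17562 genes, voom called none, and 852 genes had an unadjusted p under 0.05 (4.85%). The members' log2 differences lay between -0.01 for Casp1 and 0.21 for Il1a. The widest interval, that of Il1a, was -0.30 to 0.72, which leaves out the side difference of 1.90 seen for Il1a in SNI animals.

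The effect of surgery was larger on the operated side than on the other for 3 of 9 tested members, beside 0.637% of 18058 genes called in either direction, 0.631% with a higher effect and 0.00554% with a lower one. In this test of the difference between the sides, Il1a gave 1.69 ± 0.33 on the log2 scale (SE, limma adjusted p = 0.00748), Pycard 1.29 ± 0.22 (0.00218) and Tnfrsf1b 0.67 ± 0.12 (0.00268). For Nlrp3 it was 0.63 ± 0.23 and did not pass (adjusted p = 0.586). The 3 calls were kept in all 24 fits that left out 1 library, and none was kept without the titles 49 to 56, where the values were 2.07, 1.21 and 0.69. With motor neuron level as a covariate the call of Il1a was lost (1.48, adjusted p = 0.109).

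The design also asks whether the sexes respond alike on the operated side. The effect of SNI in females minus that in males was called for 0 of 9 members and 0% of 17602 genes by limma, and for none by voom, with 1793 genes at an unadjusted p under 0.05 (10.2%). For Pycard the difference was -0.46 on the log2 scale (interval -1.07 to 0.15) and for Il1a -0.37 (-1.18 to 0.45). For Tnfrsf1b it was -0.21 (-0.58 to 0.17) and for Nlrp3 -0.27 (-0.97 to 0.44). Il1b had the largest value, -1.88 (-3.81 to 0.06, adjusted p = 0.499). These intervals are wide, so equal responses were not shown. On this side, titles 49 to 56 hold male SNI replicates 2 and 3 and no male sham library. Each female group has its replicate 3 there. A difference between the sexes in the effect of SNI can therefore not be told apart from the range of titles.

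Of 4 ratios between members of the same branch, 3 did not overlap between the ipsilateral groups. Pycard relative to Casp1 was 1 to 1.70 CPM per CPM in SNI ipsilateral and 0.437 to 0.688 in sham ipsilateral libraries. Tnfrsf1b relative to Tnfrsf1a was 0.563 to 0.778 against 0.441 to 0.552, and Il1a relative to Il18 0.0573 to 0.118 against 0.0239 to 0.0425. The ranges of Nlrp3 relative to Casp1 overlapped, at 0.482 to 0.987 against 0.322 to 0.656. Each of the 3 divides a called member, whose own groups did not overlap, by a member that was not called, so it partly repeats that rise. No share over other pairs of genes is given for comparison. These ratios were picked with the members' changes known and are given without a test.

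**Figure D3:**
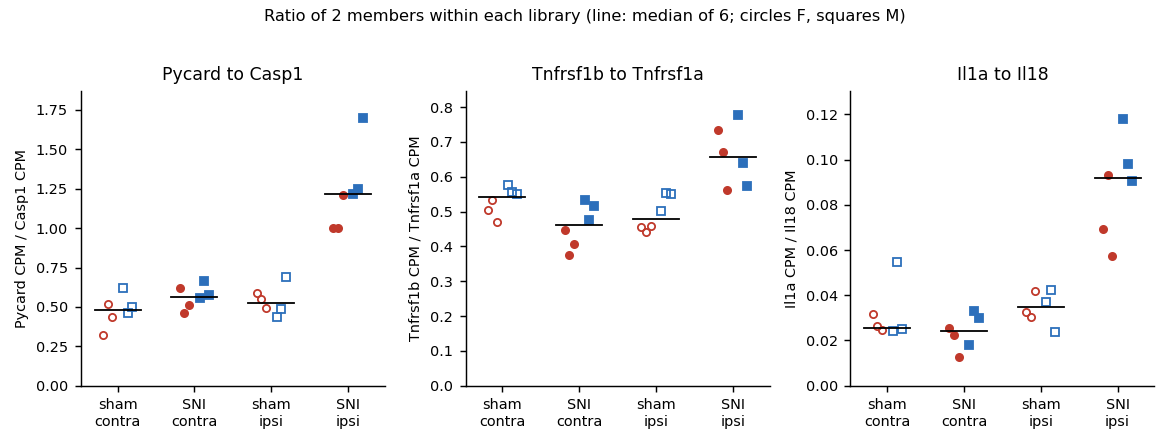
Ratio of the CPM of 2 members within each library (vertical axes, starting at 0) by surgery and side; points are libraries, circles female and squares male, filled SNI and open sham, and lines are medians of 6. The SNI ipsilateral ratios of Pycard to Casp1 start at 1, above the highest sham ipsilateral ratio of 0.688.

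Microglial markers rose on the operated side, as did the 4 called members. Of 17 markers fixed as a list, 16 were called higher in ipsilateral SNI than in sham libraries, with a median log2 change of 1.11, and the exception was Sall1 at 0.23. Their summed level was 836 to 1304 CPM in SNI ipsilateral libraries, 505 to 622 in sham ipsilateral, 418 to 534 in SNI contralateral and 427 to 512 in sham contralateral libraries, and none of the markers was at 0. Set against that sum, Pycard was 2.79 to 3.46 CPM per 1000 CPM of microglial markers after SNI and 1.92 to 2.87 after sham surgery on the operated side. Il1a was 0.943 to 1.62 against 0.747 to 1.34, Nlrp3 1.37 to 1.87 against 1.498 to 2.41, and Tnfrsf1b 9.60 to 12.5 against 12.1 to 15.04 on the same scale. The ranges of all 4 overlapped. Il18 went from 30.1 to 32.7 in sham libraries to 13.7 to 19.3 after SNI. Casp1 went from 3.68 to 5.19 in sham libraries to 1.90 to 2.89 after SNI, and Tnfrsf1a from 22.01 to 30.8 to 12.3 to 19.4. Neither of these nor Il18 overlapped between the groups. For Il1r1 the ranges overlapped, at 6.44 to 14.5 after SNI against 10.5 to 21.96 in sham libraries. None of Il18, Casp1, Tnfrsf1a and Il1r1 was called. The marker sum itself rose after SNI, so dividing by it lowers the ratio of any gene that changes little. Their lower ratios therefore do not show a fall per microglial cell, and no share of all genes is given for comparison. The part of microglial number in the members' changes was not tested.

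Markers of other immune cells were, with 1 exception, not called. Of 9 tested neutrophil markers, Csf3r alone was called higher (log2 change 1.13), and the median was -1.40. Their sum was 13.8 to 68.4 CPM in SNI ipsilateral and 9.90 to 214 CPM in sham ipsilateral libraries, and Elane was at 0 in 4 of the 6 SNI libraries. Of 12 tested markers of border macrophages and monocytes, none was called, with sums of 60.6 to 86.7 against 55.6 to 91.1 CPM. Of 4 tested T, NK and B cell markers, none was called, at sums of 1.503 to 2.97 against 0.918 to 6.64 CPM. The red blood cell sum was 56.7 to 189 against 84.0 to 472 CPM, with 0 of 6 markers called and a median of -0.90.

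Genes whose levels followed a called member most closely over the 24 libraries were picked by Pearson's correlation of log2 CPM, among genes that passed the filter on low counts. For Pycard they were Ly86 (r = 0.976), Rasal3 (0.960) and C1qc (0.954), the last a subunit gene of complement C1q. For Il1a they were Ctsh (0.926), which encodes the protease cathepsin H, Fgd2 (0.921) and the inhibitory Fc receptor gene Fcgr2b (0.921). For Nlrp3 they were the G-CSF receptor gene Csf3r (0.920), the transcription factor gene Irf8 (0.918) and the kinase gene Lyn (0.914). For Tnfrsf1b they were Unc93b1 (0.953), which carries Toll-like receptors to endosomes, the lipid phosphatase gene Inpp5d (0.953) and the lysosomal enzyme gene Gusb (0.953). All points share the contrast of surgery and side. Taken as deviations from the 8 group means, the correlations were lower, from 0.498 for Pycard with C1qc to 0.834 for Pycard with Ly86. Such deviations still hold any difference between the title ranges.

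Wider pathway lists were used to look at further steps of IL-1, TNF and inflammasome signalling on the operated side. They too were chosen with earlier results of these data known. Members are themselves in several of these lists, so the counts and medians there partly repeat the members' own changes. Counts are genes called higher of genes tested, in the same fit with its background of 1.94% called higher, and no listed pathway gene was called lower. Of 13 tested inflammasome sensors and regulators, 5 rose, with a median log2 change of 0.33 against -0.0025 over all genes: Pycard, Nlrp3, Naip2 (0.88, adjusted p = 0.000737), Naip5 (0.88, 0.00359) and Naip6 (1.12, 0.00476). The Naip genes encode sensors of bacterial flagellin and secretion proteins, and as close paralogs they can share reads, so their separate values are uncertain. Of 9 caspase and gasdermin genes, 2 rose (median 0.15). They were Gsdmd (0.59, adjusted p = 0.0171), whose product forms the membrane pore of pyroptosis when cut by inflammatory caspases, and Casp8 (0.56, adjusted p = 0.0312), which acts downstream of death receptors.

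In the IL-1 branch, 1 of 4 tested ligand genes rose, Il1a (median -0.06), and Il1rn and Il1f10 had too few reads. None of 10 tested receptor and decoy genes was called (median -0.0033); the smallest p values were those of Il1rap, the shared accessory receptor (-0.12, adjusted p = 0.431), and Il1r1. None of 13 MyD88 and IRAK signalling genes was called (median 0.01), with the smallest p values for the TAK1 adaptor genes Tab3 (-0.12, adjusted p = 0.445) and Tab1 (0.10, adjusted p = 0.508).

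In the TNF branch, 2 of 17 tested receptor genes rose (median 0.07), Tnfrsf1b and Tnfrsf13b (0.96, adjusted p = 0.00499), which encodes the TACI receptor for BAFF and APRIL. None of 9 tested ligand genes was called (median 0.03), and the smallest p values were those of Tnfsf12, which encodes TWEAK (0.21, adjusted p = 0.352), and Tnfsf13b, which encodes BAFF (-0.11, adjusted p = 0.719). None of 16 tested signalling and shedding genes was called (median 0.02), with the smallest p values for the necroptosis effector gene Mlkl (-0.42, adjusted p = 0.328) and Cflar, an inhibitor of caspase-8 (0.15, adjusted p = 0.336).

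Downstream, none of 14 NF-kappaB subunit and regulator genes was called (median 0.05). Bcl3, an atypical inhibitor family member, had a log2 change of 0.78 (adjusted p = 0.321) and the subunit gene Rela one of 0.12 (adjusted p = 0.473). Of 11 tested cytokine and endothelial response genes, 2 rose (median 0.02): the monocyte chemokine gene Ccl2 (1.81, adjusted p = 0.00112) and Socs3, a feedback inhibitor of cytokine receptors (0.71, adjusted p = 0.00632). Ccl2 had too few reads to be tested in the contralateral comparison and between the sides of sham animals, so it passed the filter on low values only where SNI ipsilateral libraries enter. Il6, Cxcl1, Cxcl2 and Sele had too few reads to be tested.

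**Figure D4:**
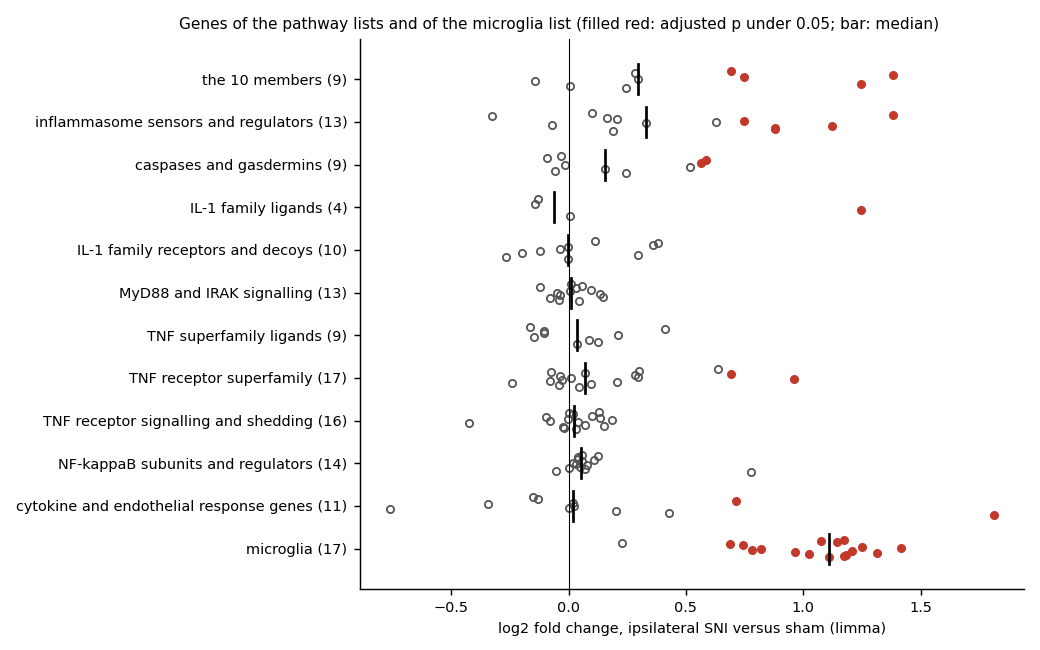
Log2 fold change in ipsilateral SNI versus sham libraries (horizontal axis) of every tested gene of the members, the pathway lists and the microglia list, with the number tested in brackets; filled red points have a limma adjusted p under 0.05 and bars are list medians. Filled points lie among the members and the inflammasome, caspase, IL-1 ligand, TNF receptor and response lists, and fill 16 of 17 microglial positions. The IL-1 receptor, MyD88, TNF ligand, TNF signalling and NF-kappaB lists hold none.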

How the data were processed

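Each deposited table pairs the gene identifiers with a number per gene that is the authors' read count, with no normalization. The number column was recorded under no standard unit (its unit is other), because the tab-separated tables carry a comma-separated file type and could not be read as counts by the format check, so count models were not run. The submitters' processing notes name STAR and the builds GRCm38 and mm10, the mouse builds among those listed, and which counter, annotation and strand setting were used is not given in the sources used here. The 5 entries that name no gene were left out of library sizes: reads in no feature were 12.3% to 15.8% of entries, reads without a unique position 9.92% to 12.8% and ambiguous reads 0.370% to 0.418%.

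TMM scaling (trimmed mean of M-values) was applied to library sizes (factors 0.950 to 1.04). Genes with about 10 counts at the median library size in at least 3 libraries and a total of at least 15 were kept. Log2 CPM with a prior count of 2, which understates the changes of genes with few reads, was fitted in limma 3.58.1 (R 4.3.3) with a mean-variance trend and robust moderation. Each comparison used the 12 libraries it is about, the side interaction all 24, with effects averaged over the sexes. Tests were two-sided and adjusted by Benjamini-Hochberg over all genes tested. The method was also run on simulated counts with the same dispersion for every gene and no differences in title range or tissue content. That setting is simpler than these data, so it does not show how the fit behaves on them. Limits given for counts of 0 cover counting error only. Counts of the 24 pairs of libraries from the same group differed by a chi-square of 6.50 to 33.95 per degree of freedom, so no library was treated as a duplicate. Symbols were matched for 40254 of 41388 identifiers (99.8% of reads), and positions and exon lengths are those of the GENCODE annotation of GRCm38. Figures were drawn with matplotlib 3.10.9 in Python 3.11.15.

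The members and lists were chosen with earlier results of these data known. Named were all 10 members, from each pathway list every gene called on the operated side or, where none was, the 2 with the smallest p, and the 3 genes most correlated with each called member. Csf3r, Sall1 and Elane were named in the marker lists after their values were seen. Rat libraries were not used here. Alternatives were voom, another prior count, no filter, other scaling, all libraries in 1 fit, a motor neuron covariate, and leaving out libraries.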

Additional observations from a re-analysis of the deposited data

Results flagged for a closer look

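For 3 members the effect of surgery differed between the sides, by the test of that difference in all 24 libraries. Il1a rose more on the operated side by 1.69 on the log2 scale (limma adjusted p = 0.00748), Pycard by 1.29 (adjusted p = 0.00218) and Tnfrsf1b by 0.67 (adjusted p = 0.00268). The calls were not kept without the titles 49 to 56, at values of 2.07, 1.21 and 0.69. That fit holds only replicate 1 of the male SNI libraries. With motor neuron level as a covariate Il1a lost its call (1.48, adjusted p = 0.109). All 6 SNI ipsilateral libraries lay above all 6 sham ipsilateral libraries for each of these genes, as for 1.24% of all genes, and the contralateral groups overlapped. The microglial marker sum differed in the same way, at 836 to 1304 against 505 to 622 CPM ipsilaterally and 418 to 534 against 427 to 512 CPM contralaterally, and its part in the differences was not tested.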

How the results depend on the processing

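No paired analysis was made, because each library has its own title number and nothing in the labels ties libraries to animals. Consecutive titles hold both sides of the same sex and surgery, but whether they share an animal is not stated, and they were not used as a block. Reads limit Il1b and Tnf most, with at most 27 and 5 per library. Pycard, Il1a and Tnfrsf1b were called in ipsilateral SNI against sham libraries in all 12 fits that left out 1 library, and Nlrp3 in 4. Those fits called 259 to 406 genes higher, 4 to 50 lower and 3 to 5 members. Within SNI animals they called 328 to 967 genes higher, 188 to 873 lower and 3 to 4 members, with most calls without female SNI contralateral replicate 1. On the contralateral side they called 0 to 1 genes higher, between the sides of sham animals 0 to 10 higher, and for the side interaction 99 to 154 higher and 1 to 4 lower, with 3 members throughout. For the sex interaction they called 0 to 1 genes lower. Members whose log2 change was near 0 or poorly measured changed sign in some of these fits, and none of them was called. Ipsilaterally Il1b ran from -0.46 to 0.081 and Il18 from -0.025 to 0.040. Contralaterally Il1r1 ran from -0.061 to 0.20, Nlrp3 from -0.0064 to 0.21, Pycard from -0.011 to 0.17 and Tnfrsf1b from -0.026 to 0.074. Within SNI animals Il1b ran from -0.54 to 0.14. Within sham animals Il1r1 ran from -0.085 to 0.14, Il18 from -0.030 to 0.092, Casp1 from -0.11 to 0.070 and Tnfrsf1b from -0.0079 to 0.11. The side interaction of Tnfrsf1a ran from -0.030 to 0.14 and the sex interaction of Casp1 from -0.19 to 0.059. The causes of these shifts and of those below were not tested, except that fewer libraries enter some fits.

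Without the titles 49 to 56, ipsilateral SNI against sham gave 65 genes higher, 2 lower and 1 member, with Il1a at 1.48 (adjusted p = 0.0692), Tnfrsf1b at 0.61 (0.109), Nlrp3 at 0.58 (0.543) and Il18 at -0.014. SNI ipsilateral against contralateral gave 21 genes higher, 0 lower and 0 members, with log2 differences of 2.17 for Il1a (adjusted p = 0.0793), 1.48 for Pycard (0.0993), 0.75 for Tnfrsf1b (0.103) and 0.80 for Nlrp3 (0.473). The side interaction gave 33 higher, 0 lower and 0 members, at 2.07 for Il1a (adjusted p = 0.116), 1.21 for Pycard (0.268), 0.69 for Tnfrsf1b (0.208) and -0.11 for Tnfrsf1a. Contralateral Il1r1 went to -0.0052 and Tnfrsf1b to -0.076, and sham Casp1 to 0.038.

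With motor neuron level as a covariate, 2 genes were called lower ipsilaterally, Nlrp3 lost its call (0.76, adjusted p = 0.159) and Il1b went to 0.40. Within SNI animals 335 genes were called higher, 20 lower and 2 members. There Il1a (2.08 ± 0.54, SE, limma adjusted p = 0.0637) and Nlrp3 (1.54 ± 0.38, 0.0521) lost their calls at higher estimates and larger SEs. Il1b went to 2.08 and Il1r1 to -0.33. The interaction called 0 genes lower, Il1a lost its call (1.48, adjusted p = 0.109) and Il1r1 went to -0.14.

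Without the 2 libraries of a comparison highest in blood and neutrophil markers, 1 gene was called lower ipsilaterally, Nlrp3 lost its call (0.70, adjusted p = 0.131), Il1b went to 0.029 and Il18 to -0.0069. Contralaterally 1 gene was called higher and 1 lower, with Nlrp3 at -0.065. Within SNI animals 330 were called higher and 154 lower, and between the sides of sham animals 2 higher. With all 24 libraries in 1 fit, 37 genes were called lower ipsilaterally. The interaction called 2 genes lower with a prior count of 0.5 and 2 with no filter, and voom put sham Casp1 at 9.98e-05.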

Other observations

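The pathway genes that rose beside the members were also set against the other side of the cord in SNI animals, where the SNI ipsilateral libraries are the same as before. Naip2 (log2 difference 1.19, limma adjusted p = 0.000214), Naip5 (1.23, 0.000172), Naip6 (1.27, 0.00130), Gsdmd (0.64, 0.0126), Tnfrsf13b (0.99, 0.00555) and the chemokine gene Ccl2 (2.20, 0.00137) were higher ipsilaterally. Casp8 (0.45, adjusted p = 0.0921) and Socs3 (0.68, 0.0606) did not pass there. The limit given above for Ccl2 and the filter on low values holds here too.

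Within groups, the members varied together to different degrees. Over the 24 libraries, deviations of log2 CPM from the 8 group means were set side by side by Pearson's correlation. Among pairs of members that passed the filter, it was highest between the receptor genes Tnfrsf1a and Tnfrsf1b, at 0.786. Next came Il1b with Tnfrsf1b (0.736), Il18 with Pycard (0.706) and Il1a with Casp1 (0.672). For Il1a and Nlrp3 it was 0.062, although both rose on the operated side. These are descriptions over libraries that share depth and tissue content, given without a test. The deviations still hold any difference between the title ranges, and Il1b had at most 27 reads per library. On both sides, male SNI replicates 2 and 3 (titles 49 to 52) exceeded replicate 1 in Tnfrsf1a, Tnfrsf1b and Il1b. In no female group did replicate 3, the one among titles 49 to 56, exceed both others in all of these genes. The part of the title range in these correlations was not tested.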
